A study of Mus musculus with 6 samples.

Results

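The renin-angiotensin peptidases and receptors examined here are 8 genes, Agt, Ace, Enpep, Anpep, Mme, Agtr1a, Agtr2 and Agtrap, taken by symbol from a table of 35275 genes measured in mouse aorta. All 8 were found in the table. The study sequenced total RNA of aorta in 3 EC-Jag1KO libraries, in which the Notch ligand Jagged1 was deleted in mature endothelial cells, and 3 wild-type libraries. The labels give tissue and genotype and do not give strain, age, the Cre driver or whether animals were pooled, and p-values therefore describe how far these 6 libraries scatter, which may be technical. Values are FPKM, fragments scaled by gene length and by all fragments in genes, and each is a level in whole tissue, where fewer cells of a type and less RNA per cell cannot be told apart.

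The renin-angiotensin system makes a vasoconstrictor peptide by serial cleavage of a secreted precursor. Angiotensinogen, the product of Agt, is cut by renin to angiotensin I, and angiotensin-converting enzyme, the product of Ace, trims this to angiotensin II on the endothelial surface. Glutamyl aminopeptidase (Enpep) removes the first residue of angiotensin II to give angiotensin III, alanyl aminopeptidase (Anpep) shortens angiotensin III further, and neprilysin (Mme) cleaves angiotensin I to angiotensin 1-7 as well as natriuretic peptides and kinins. In smooth muscle the type 1 receptor, for which mice have the genes Agtr1a and Agtr1b, drives contraction, the type 2 receptor (Agtr2) opposes it, and the protein encoded by Agtrap binds the type 1 receptor and promotes its internalization.

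The sequences below show the substrate and the catalytic signature that the 4 peptidases of the set share, since the comparison turns on their relative levels. They are coding stretches of the GENCODE M21 transcripts (mm10), read in the direction of the gene. In Agt, exon 2, minus strand of chromosome 8, 124564450 to 124564479, the capitals mark the 8 codons of angiotensin II within the 10 codons of angiotensin I. In the peptidases the capitals mark the 15 bases of the zinc-binding signature, in which a histidine and a glutamate are followed by any pair of residues and a histidine.
Agt: GACCGCGTATACATCCACCCCTTCcatctc
Enpep: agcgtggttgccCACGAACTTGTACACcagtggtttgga
Anpep: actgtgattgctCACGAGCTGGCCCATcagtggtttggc
Mme: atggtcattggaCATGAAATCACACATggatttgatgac
Ace, first match: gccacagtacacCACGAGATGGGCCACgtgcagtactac
Ace, second match: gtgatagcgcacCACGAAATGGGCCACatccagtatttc
Ace holds the signature in each of its catalytic domains, in exons 8 and 20, and the other peptidases hold it once. Over the 39 bases shown, Enpep shares 29 with Anpep, its relative in the M1 family of aminopeptidases, 18 with Mme and 17 with each of the Ace stretches. The Enpep stretch runs over the junction of exons 5 and 6 (minus strand of chromosome 3, 129309127 to 129309798, intron included) and the Anpep stretch over that of exons 6 and 7 (minus strand of chromosome 7, 79838993 to 79839192). The Mme stretch lies in exon 18 (plus strand of chromosome 3, 63362009 to 63362047), and those of Ace start at 105972898 and 105985082 on the plus strand of chromosome 11. The deposited gene boundaries of Anpep and Mme differ from those of GENCODE M21.

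Smooth muscle and endothelial markers were present in every library. Pecam1, an endothelial adhesion molecule, was at 178 to 229 FPKM in EC-Jag1KO and 172 to 229.9 FPKM in wild-type libraries, and Myh11, the smooth muscle myosin, at 1197 to 1307 FPKM in EC-Jag1KO and 1415 to 1576 FPKM in wild-type libraries. Reads in genes, recovered from the FPKM values, numbered 19889910 to 25914325 per library. Jag1 stood at 13.5, 9.42 and 19.6 FPKM in EC-Jag1KO and 9.86, 10.6 and 16.9 FPKM in wild-type libraries. Jag1 RNA in whole aorta comes from more than endothelium, and the labels do not say what stretch of the gene was removed, so these values are no test of the knockout. Xist and the Y-linked gene Ddx3y put replicate 3 of each genotype as female and the other 4 libraries as male, so both genotypes have the same sex balance. Across the 12165 genes averaging 1 FPKM or more, limma called 0 (0% at an adjusted p under 0.05), and 938 (7.71%) had an unadjusted p under 0.05.

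None of the members passed the adjusted threshold, and Enpep stood furthest from the spread of the replicates, at 0.555 times its wild-type mean in EC-Jag1KO aorta. Mme lay the other way, at 1.99 times its wild-type mean. Ace and Anpep, the most abundant members, differed by less than the spread between replicates. Agtrap was lower in EC-Jag1KO by an amount that did not clear that spread, and Agt, Agtr1a and Agtr2 had a mean below 1 FPKM and were not part of the fit. Of the 5 tested members, Enpep (lower) and Mme (higher) had groups that do not overlap, where 6.73% of all tested genes were lower and 6.84% higher in this way (13.6% in either direction). The same 2 members had an unadjusted p under 0.05, a threshold that 3.46% of tested genes passed on the lower side and 4.25% on the higher side.

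**Figure D1:**
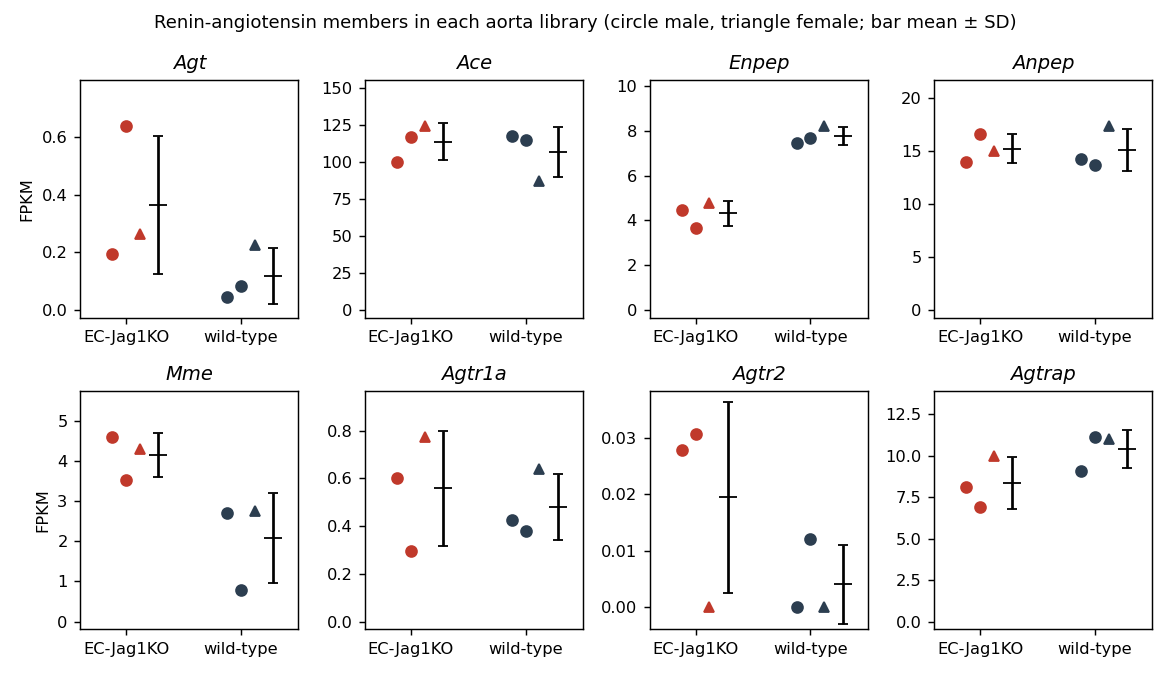
FPKM of the 8 members in each library, EC-Jag1KO on the left and wild-type on the right of each panel; circles are male and triangles female libraries, and the bar is the mean with its SD over 3 libraries. Enpep is lower and Mme higher in all 3 EC-Jag1KO libraries, and the other 6 members overlap between genotypes.

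Agt (ENSMUSG00000031980, minus strand of chromosome 8, 124556534 to 124569706, mm10) was near the limit of counting. It had 0.193, 0.638 and 0.265 FPKM in EC-Jag1KO libraries, on 8, 24 and 13 reads, against 0.0448, 0.0842 and 0.226 FPKM in wild-type libraries, on 2, 4 and 11 reads. The highest wild-type library lay above the lowest EC-Jag1KO library, so the groups overlap. An exact two-sided permutation test of log2(FPKM + 1) gave p = 0.2, and 0.1 is the smallest p that 3 against 3 libraries allow. The precursor is made mainly by the liver, and fat also makes it. Renin, from Ren1, was at 0.258, 0.158 and 0 FPKM in EC-Jag1KO libraries and 0.292, 0 and 0 FPKM in wild-type libraries.

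Ace (ENSMUSG00000020681, plus strand of chromosome 11, 105967945 to 105989964) was the most abundant member and ranked 481 among all genes of the table by mean FPKM. It stood at 99.8, 117 and 124 FPKM in EC-Jag1KO libraries against 117, 115 and 87.5 FPKM in wild-type libraries, on 10726 to 15821 reads per library. The lowest value of all was wild-type replicate 3 and the highest EC-Jag1KO replicate 3, both female, and the groups overlap. The log2 fold change of 0.098, here and for every gene the difference of mean log2(FPKM + 1), had a 95% interval from -0.25 to 0.45 (adjusted p = 0.919, limma). Its sign depended on the female libraries: among males the difference was -0.11 on the log2 scale (2 against 2), and between the females 0.50 (1 against 1), a contrast that was not tested. The antisense gene Gm11651 overlaps Ace, and how reads of the overlap were assigned is not given.

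Enpep (ENSMUSG00000028024, minus strand of chromosome 3, 129269175 to 129332720) stood at 4.47, 3.68 and 4.79 FPKM in EC-Jag1KO libraries against 7.45, 7.65 and 8.22 FPKM in wild-type libraries, on 306 to 883 reads. All EC-Jag1KO values lay below all wild-type values, with a gap between 4.79 and 7.45 FPKM. The means were 4.31 ± 0.57 FPKM in EC-Jag1KO and 7.77 ± 0.40 FPKM in wild-type aorta (SD, n = 3 each). The difference of mean log2(FPKM + 1), a scale on which the change of low genes comes out smaller than in the ratio of mean FPKM, was -0.73 (SE 0.11, 95% interval -0.995 to -0.46). Its unadjusted p of 0.000307 ranked 14 of the 12165 genes in limma, and its adjusted p was 0.245, so it did not pass over all genes. The exact two-sided permutation test gave p = 0.1, the smallest that 3 against 3 allows. Within males the difference was -0.76 on the log2 scale and between the females -0.67. With array weights, which gave EC-Jag1KO replicate 1 a weight of 14.7 and every other library at most 1.61, Enpep passed (log2 fold change -0.66, adjusted p = 0.00605, limma). Under these weights 1647 of the 12165 tested genes passed, where 0 did in the main fit. The pseudogene Gm42628 lies within the gene on the opposite strand.

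In mouse tissues Enpep is carried by pericytes and other mural cells, and markers of these cells lay both ways. Of 8 tested pericyte markers, 6 were lower and 2 higher, 0 passed, and the median log2 fold change was -0.17, where that of all tested genes was -0.00022. A further listed marker, Higd1b, was under 1 FPKM in every library and not tested. The mean log2 level of all 9 was 4.28, 4.35 and 4.32 in EC-Jag1KO libraries against 4.59, 4.48 and 4.31 in wild-type libraries, so the groups overlap. The summed level of the 9 was 327 to 460.2 FPKM in EC-Jag1KO and 309.5 to 503 FPKM in wild-type libraries. Notch3, the receptor of mural cells, was at 9.21, 9.67 and 10.8 FPKM in EC-Jag1KO against 17.8, 14.9 and 15.5 FPKM in wild-type libraries. Rgs5, a defining pericyte gene, was at 91.8, 136 and 173 FPKM in EC-Jag1KO against 234, 229 and 56.8 FPKM in wild-type libraries, with wild-type replicate 3 lowest of all. Cspg4, the NG2 proteoglycan, was at 62.9, 76.08 and 71.1 FPKM in EC-Jag1KO against 90.0002, 93.8 and 76.1 FPKM in wild-type libraries. Notch3 and Cspg4 were lower without overlap, Cspg4 by a very narrow gap. Abcc9, a potassium channel subunit, lay the other way without overlap, at 74.3, 71.3 and 108 FPKM in EC-Jag1KO against 61.9, 67.5 and 62.8 FPKM in wild-type libraries, and its partner Kcnj8 had a log2 fold change of 0.032. Of 10 tested smooth muscle markers 6 were lower and 4 higher, 0 passed, and the median log2 fold change was -0.10. Without overlap, 4 of them were lower (Myh11, Tagln, Smtn and Lmod1, at 0.853, 0.846, 0.722 and 0.744 times their wild-type means) and 1 higher (Myocd, the smooth muscle coactivator, at 1.42 times). Over all tested genes 6.73% were lower and 6.84% higher without overlap. The summed level of the smooth muscle list was 12055 to 14318 FPKM in EC-Jag1KO and 14266 to 14991 FPKM in wild-type libraries. The part of mural cells in the Enpep values was not tested.

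The bases before the annotated start of Enpep are shown because a Notch ligand was deleted and the core of the site bound by RBP-J, the DNA-binding partner of Notch, has a known sequence. The 250 bases lie on the minus strand at chr3:129332750-129332999 (RefSeq, GRCm38.p6).
Enpep: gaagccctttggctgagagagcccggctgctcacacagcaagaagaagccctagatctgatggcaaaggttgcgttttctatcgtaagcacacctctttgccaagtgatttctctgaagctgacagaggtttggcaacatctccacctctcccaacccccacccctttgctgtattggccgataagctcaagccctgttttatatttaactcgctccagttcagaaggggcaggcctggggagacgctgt
The core TGGGAA, or TTCCCA on the other strand, was not found in it, nor in any of the 10 windows of this kind that RefSeq gives for 7 of the members. Of 32851 such windows of all genes, 21.6% hold it. These letters are only looked for in this window, and nothing about the factor follows from their absence.

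Anpep (ENSMUSG00000039062, minus strand of chromosome 7, 79821803 to 79848210) stood at 13.9, 16.6 and 14.99 FPKM in EC-Jag1KO libraries against 14.3, 13.6 and 17.3 FPKM in wild-type libraries. The values interleave, with EC-Jag1KO replicate 2 and wild-type replicate 3 the highest. The estimated log2 fold change of 0.012 (95% interval -0.27 to 0.29, adjusted p = 0.991, limma) leaves out a change as large as that of Enpep in either direction. The gene Gm44974 overlaps Anpep on the same strand. The sign turned with several libraries left out, so no direction is given.

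Mme (ENSMUSG00000027820, plus strand of chromosome 3, 63295872 to 63382231) stood at 4.59, 3.53 and 4.30 FPKM in EC-Jag1KO libraries against 2.70, 0.779 and 2.76 FPKM in wild-type libraries, on 83 to 472 reads. All EC-Jag1KO values were above all wild-type values, and wild-type replicate 2 lay far below the other libraries. Limma gave a log2 fold change of 0.81 (SE 0.29, 95% interval 0.13 to 1.49, unadjusted p = 0.0258, adjusted p = 0.585), and the exact two-sided permutation test gave p = 0.1, the smallest possible. Without wild-type replicate 2 the log2 fold change was 0.46, with an unadjusted p of 0.0193 and an adjusted p of 0.958 (limma), and with the array weights it was 0.90 (adjusted p = 0.0360). Those weights called 1647 of the 12165 tested genes. Within males the difference was 0.97 on the log2 scale and between the females 0.49.

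The library that was lowest in Mme was also the lowest in adipocyte markers. The mean log2 level of the 10 adipocyte markers was 6.65, 6.43 and 5.92 in EC-Jag1KO libraries against 6.28, 4.80 and 6.80 in wild-type libraries, where the low value is wild-type replicate 2. Their summed level was 1294 to 2634 FPKM in EC-Jag1KO and 636 to 2888 FPKM in wild-type libraries. Of 9 tested adipocyte markers 8 were higher and 0 passed, and Lep, the leptin gene, was under 1 FPKM in every library. Adipoq, the adiponectin gene, was at 106.9, 87.6 and 60.5 FPKM in EC-Jag1KO against 64.6, 19.9 and 114.9 FPKM in wild-type libraries. With the adipocyte level as a covariate the log2 fold change of Mme was 0.62 (unadjusted p = 0.0118, adjusted p = 0.529, limma), and that of Enpep was -0.73 (adjusted p = 0.322). Wild-type replicate 2 was also lowest in the mean log2 level of brown adipocyte (2.12) and striated muscle (0.79) markers. The same held for Schwann and nerve (1.08), lymphocyte, neutrophil and mast cell (0.503) and mesothelial (0.0893) markers. For endothelial markers it held only narrowly, at 3.99 against 4.01 in wild-type replicate 1. Their summed level was lowest in wild-type replicate 1, at 307 FPKM against 336 FPKM in wild-type replicate 2. Wild-type replicate 2 was not the lowest in smooth muscle, fibroblast, pericyte or macrophage markers. What any of these cells add to the Mme values was not tested.

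**Figure D2:**
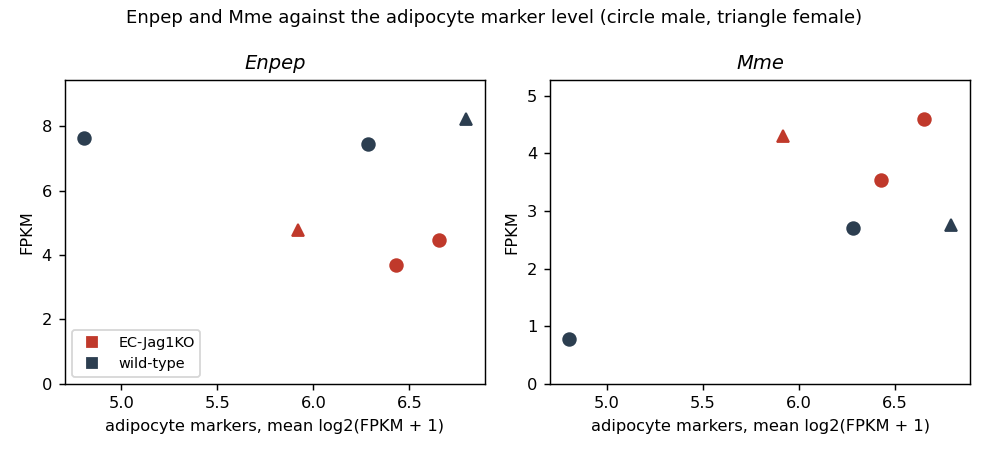
FPKM of Enpep (left) and Mme (right) in each library against the mean log2(FPKM + 1) of 10 adipocyte markers; red symbols are EC-Jag1KO and dark symbols wild-type, circles male and triangles female. Wild-type replicate 2, at a marker level of 4.80, has the lowest Mme value (0.779 FPKM) and an Enpep value of 7.65 FPKM, close to those of the other wild-type libraries.

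Read as ratios within a library, which do not depend on scaling between libraries, Enpep was lower against each of the other 3 peptidases in EC-Jag1KO aorta. Enpep stood at 4.47%, 3.15% and 3.85% of the Ace level in EC-Jag1KO libraries and 6.35%, 6.64% and 9.39% in wild-type libraries. Against Anpep it stood at 32.1%, 22.1% and 31.95% in EC-Jag1KO and 52.3%, 56.1% and 47.4% in wild-type libraries. Enpep and Mme were at nearly equal levels in EC-Jag1KO aorta, with Enpep at 97.4%, 104% and 112% of Mme, while it stood at 275%, 982% and 297% of Mme in wild-type libraries. None of the 3 ratios overlapped between genotypes. The mean log2 ratio differed by -0.94 against Ace, -0.86 against Anpep and -1.98 against Mme, with an exact two-sided permutation p of 0.1 for each, the smallest possible, and 0.167 adjusted over the 5 ratios tested. The 3 ratios share the Enpep values and are not independent of each other. Enpep alone was lower and Mme alone higher without overlap, so Enpep over Mme had to separate. Its exact permutation p was fixed by those values and adds nothing to them.

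**Figure D3:**
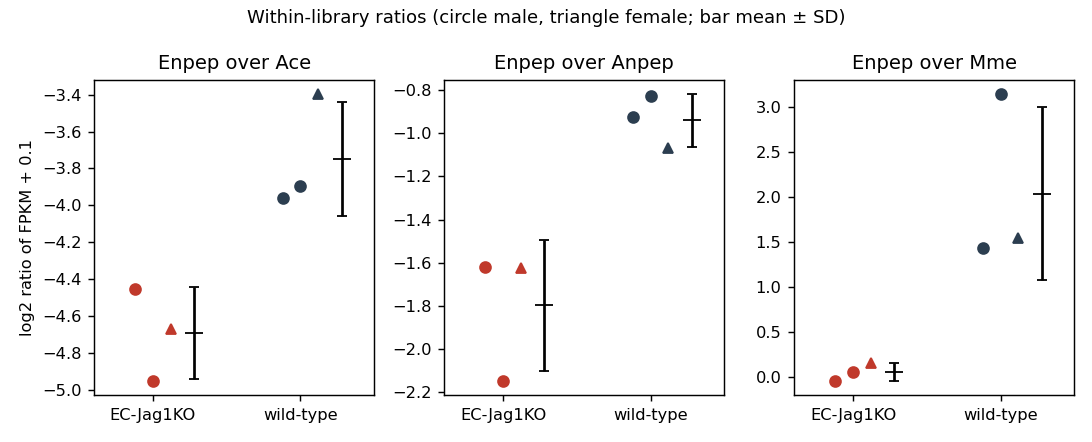
Log2 ratio of FPKM + 0.1 of Enpep over Ace, Anpep and Mme in each library, EC-Jag1KO left and wild-type right; circles are male and triangles female libraries, and the bar is the mean with its SD over 3 libraries. All EC-Jag1KO ratios lie below all wild-type ratios in the 3 panels, and wild-type replicate 2 stands highest over Mme at 3.14.

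The angiotensin receptors were at low levels. Agtr1a (ENSMUSG00000049115, plus strand of chromosome 13, 30336441 to 30382867) was at 0.602, 0.297 and 0.772 FPKM in EC-Jag1KO libraries against 0.423, 0.380 and 0.637 FPKM in wild-type libraries, on 13 to 44 reads. Within each genotype replicate 3, the female library, was the highest, and the groups overlap (exact two-sided permutation p = 0.8). Agtr1b, its paralogue, was at 0.596, 0.703 and 1.11 FPKM in EC-Jag1KO against 0.986, 0.519 and 1.72 FPKM in wild-type libraries, again highest in replicate 3 of each genotype. The coding regions of both genes are 1080 bases long and identical at 90.8% of positions in GENCODE M21, so the split of reads between them is uncertain. Agtr2 (ENSMUSG00000068122, plus strand of chromosome X, 21484544 to 21489164) had 2, 2 and 0 reads in EC-Jag1KO libraries and 0, 1 and 0 reads in wild-type libraries. A count of 0 allows up to 3 reads, 0.0353 to 0.0387 FPKM in the libraries concerned, so no fold is given and no difference was detectable at this depth. Mas1, the receptor of angiotensin 1-7, was at 0.304, 0.251 and 0.338 FPKM in EC-Jag1KO and 0.247, 0.298 and 0.0972 FPKM in wild-type libraries.

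Agtrap (ENSMUSG00000029007, minus strand of chromosome 4, 148077061 to 148088031) was far above the receptor it binds. It stood at 8.08, 6.91 and 10.0045 FPKM in EC-Jag1KO libraries against 9.09, 11.1 and 11.0009 FPKM in wild-type libraries, on 549 to 1130 reads. EC-Jag1KO replicate 3 lay above wild-type replicate 1, and the other values kept to their groups. Its log2 fold change was -0.30 (95% interval -0.64 to 0.044, adjusted p = 0.677, limma; exact two-sided permutation p = 0.2). Over Agtr1a its mean log2 ratio was 3.74 ± 0.35 in EC-Jag1KO and 4.20 ± 0.32 in wild-type libraries (SD, n = 3 each; exact permutation p = 0.3). With 1 added to each gene in place of 0.1, the difference of this ratio was -0.36 (exact permutation p = 0.1). The low Agtr1a values thus make its p depend on the added value.

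By mean FPKM over the 6 libraries the members stood in the order Ace (110.2), Anpep (15.1), Agtrap (9.37), Enpep (6.04), Mme (3.11), Agtr1a (0.519), Agt (0.242) and Agtr2 (0.0118). In wild-type libraries the values of Enpep and Mme do not meet, while in EC-Jag1KO libraries they interleave. Agt and Agtr1a interleave in EC-Jag1KO libraries and not in wild-type libraries. The coefficient of variation of Enpep was 13.2% in EC-Jag1KO and 5.11% in wild-type libraries, and that of Mme was 13.2% in EC-Jag1KO and 54.2% in wild-type libraries.

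The genes whose values lay closest to each tested member over the 6 libraries were found by the root-mean-square difference of centred log2(FPKM + 1), among 8030 protein-coding genes averaging 5 FPKM or more (8031 for Mme). For Enpep, whose own spread on this scale was 0.38, they were Bcam, a laminin receptor (0.10), and Pax1, a transcription factor (0.12). Bcam was at 347, 356 and 350.4 FPKM in EC-Jag1KO against 572, 565 and 595 FPKM in wild-type libraries, and Pax1 at 5.44, 5.17 and 6.86 FPKM in EC-Jag1KO against 8.68, 9.05 and 8.95 FPKM in wild-type libraries. For Mme, with a spread of 0.55, the closest was Acaa2, a thiolase of fatty acid oxidation (0.11), at 112, 88.8 and 104 FPKM in EC-Jag1KO against 78.1, 40.9 and 88.2 FPKM in wild-type libraries, lowest in wild-type replicate 2. Esyt2 and Tmtc1 lay closest to Ace, Cstf3 and Utp3 to Anpep, and Wscd2 and Ptprm to Agtrap, at differences of 0.010 to 0.052. Close profiles over 6 libraries are a description, since every candidate was searched.

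Among 69 other genes of the pathway, its relatives and other listed peptidases found in the table, 47 were tested. Of these 47, 23 were lower and 24 higher in EC-Jag1KO, 0 passed limma's adjusted threshold, and 6 had an unadjusted p under 0.05. Over all tested genes 7.71% had such a p and 13.6% had groups without overlap, the background for the genes named next. Other peptidases that make or break angiotensins lay both ways. Rnpep, an aminopeptidase that removes basic residues, stood at 9.40, 9.62 and 10.4 FPKM in EC-Jag1KO against 12.9, 12.2 and 15.047 FPKM in wild-type libraries, a log2 fold change of -0.41 (adjusted p = 0.414) with groups that do not overlap. Prcp, a carboxypeptidase that inactivates angiotensin II, stood at 11.3, 9.71 and 12.2 FPKM in EC-Jag1KO against 7.50, 8.63 and 9.32 FPKM in wild-type libraries, a log2 fold change of 0.35 (adjusted p = 0.579), also without overlap. Cma1, a mast cell chymase that makes angiotensin II without converting enzyme, was at 2.04, 2.62 and 4.56 FPKM in EC-Jag1KO against 1.02, 0.296 and 2.10 FPKM in wild-type libraries. Lnpep, the aminopeptidase that binds angiotensin IV, had a log2 fold change of 0.35 (adjusted p = 0.671), and Atp6ap2, the prorenin receptor, -0.027 (adjusted p = 0.966). Of the 14 tested genes of this list 6 were lower and 8 higher, with a median log2 fold change of 0.065.

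Of 12 further receptor and kinin genes 3 had a mean of at least 1 FPKM, and 0 of these passed. Kng2, a kininogen gene, was at 3.54, 1.80 and 4.39 FPKM in EC-Jag1KO against 1.68, 0.173 and 2.22 FPKM in wild-type libraries, with wild-type replicate 2 again the lowest. Bdkrb2, the bradykinin B2 receptor whose ligand converting enzyme degrades, had a log2 fold change of 0.23, and Nr3c2, the mineralocorticoid receptor, 0.013, both with intervals that span 0. A further list, of relatives of the member peptidases with other cell-surface peptidases added, had 9 tested genes. In it Ece2, an endothelin-converting enzyme, had a log2 fold change of 0.46 (adjusted p = 0.613, limma), and Ece1, its vascular relative, 0.19 (adjusted p = 0.670). Fap, a fibroblast protease of another family than the members, had 0.26. Ece1 was at 48.2, 46.2 and 50.4 FPKM in EC-Jag1KO against 40.97, 44.7 and 40.5 FPKM in wild-type libraries, with no overlap.

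Of 21 tested genes that carry, limit or end the signal of the angiotensin receptors, such as G proteins, RGS proteins, receptor kinases and arrestins, 13 were lower and 8 higher, 0 passed and 1 had an unadjusted p under 0.05, with a median log2 fold change of -0.083. Plcb3, a phospholipase C that the receptor activates, was at 29.7, 30.8 and 32.6 FPKM in EC-Jag1KO against 34.3, 36.5 and 38.6 FPKM in wild-type libraries. Gna11, one of the G proteins that couple the receptor to it, was at 51.7, 49.8 and 48.6 FPKM in EC-Jag1KO against 53.9, 59.4 and 57.3 FPKM in wild-type libraries. Plcb1 lay the other way, with a log2 fold change of 0.31 (adjusted p = 0.70, limma). Each of these 3 genes had groups without overlap.

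**Figure D4:**
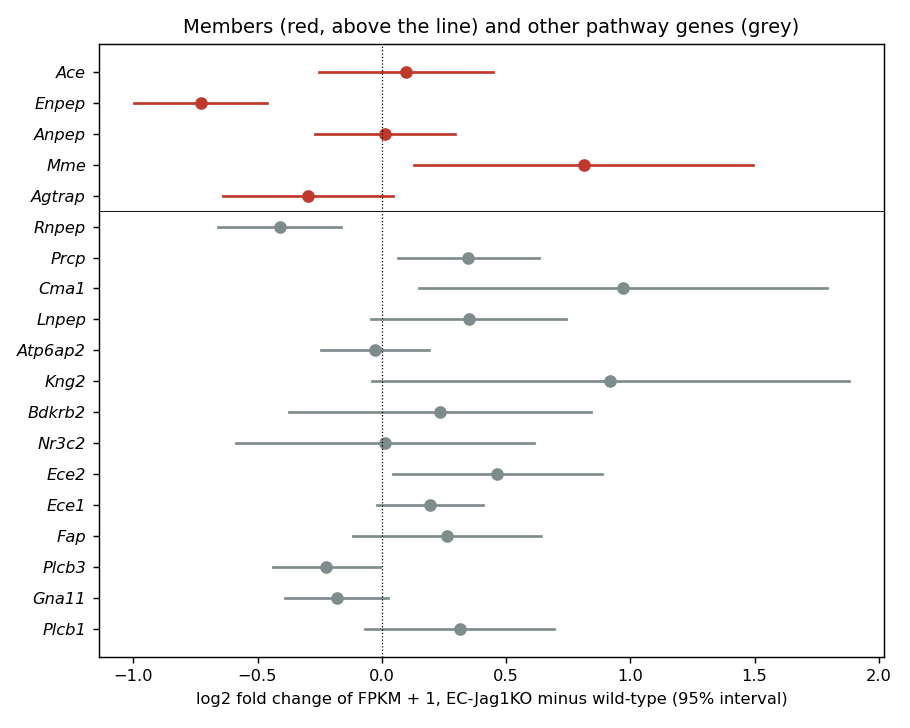
Log2 fold change of FPKM + 1, EC-Jag1KO minus wild-type, with its 95% interval, for the 5 tested members (red, above the line) and 14 other pathway genes (grey). The intervals of Enpep (-0.995 to -0.46) and Mme (0.13 to 1.49) do not span 0 among the members, and none of the genes shown passed the adjusted threshold.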

How the data were processed

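Total RNA of mouse aorta was sequenced in 6 libraries, and the authors deposited FPKM values, 1 column per library, with gene lengths. Per the submitters' processing notes, STAR, HTSeq and edgeR were used (versions and roles unnamed) on mm10. Annotation, strandedness and filters were not given in the sources used here, so overlapping genes may share reads. Dividing values by the worth of 1 read gave whole reads (211650 of 211650 values, 100%, within 0.05), and from these the depth. Floors of 3 reads cover counting error only. The intervals of log2 fold changes come from the limma fit and rest on the spread between libraries within genotypes.

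Values were analysed as log2(FPKM + 1), which understates the change of low genes. The 12165 genes averaging 1 FPKM or more were tested two-sided with limma 3.58.1 in R 4.3.3 on genotype alone, with a mean-variance trend and Benjamini-Hochberg adjustment over all of them at 0.05. Alternatives changed the pseudocount, filter, scaling, variance model and covariates, or left out libraries. Members and ratios were tested with an exact permutation test over the 20 assignments (8 members, and 5 ratios with 0.1 added). The limma fit was tested on simulated data. Libraries differed by chi-square per degree of freedom of 26.3 to 79.7, so none was entered more than once. Libraries were treated as unpaired. Deviations of same-numbered libraries correlated at 0.055, 0.051 and -0.050, and those of differently numbered ones at -0.24 to 0.19. With so few libraries these values cannot settle whether replicate numbers pair them.

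Members, lists and tests were chosen with earlier results of these data known. Named are Jag1, the members, the 3 genes of smallest p in each of 4 pathway lists, 7 preset pathway genes, the 2 closest profiles per tested member, and marker genes, of which 2 are not reported here; 168 of 169 listed symbols were matched. The plot of levels adds list genes outside this rule. Python 3.11.15 with matplotlib 3.10.9 made the plots.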

Additional observations from a re-analysis of the deposited data

How the results depend on the processing

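No member passed the adjusted threshold under the changes of pseudocount, filter, scaling, variance model and covariate tried, or with any library left out. The exception was array weights, with 14.7 for EC-Jag1KO replicate 1 and from 0.259 up to 1.61 for the rest. With them 1647 of 12165 genes, 2 of 5 tested members (Enpep, log2 fold change -0.66, and Mme, 0.90) and 8 of 47 other pathway genes were called. Ace (-0.14) and Anpep (-0.050) turned negative. Over all genes, 1 was called with sex as a covariate (RP24-479J14.1), 2 without both female libraries (Gm10020 and Gm6472) and 0 to 4 with each library left out, where the 4 arose without EC-Jag1KO replicate 1 (Gm14287, Eif3s6-ps2, Gm12191 and Rpl3-ps1, processed pseudogenes in GENCODE M21). These genes are named after their values were seen. The log2 fold change of Enpep stayed between -0.85 and -0.64 over 19 alternatives, with an unadjusted p of at most 0.0017, and that of Mme between 0.46 and 1.20 over 18. Anpep was -0.029 with the adipocyte covariate and Ace -0.11 without both female libraries. With each library left out, Anpep ran from -0.052 to 0.11, Ace from -0.038 to 0.19, Agtrap from -0.42 to -0.18, Agtr1a from -0.034 to 0.19 and the log2 ratio of Agtr1a over Agtr2 from -0.42 to 0.34. That ratio (-0.060, or 0.043 with 1 added in place of 0.1) has a denominator set mostly by the added value and is not interpreted. For the reversals the cause was not tested. With the replicate block 0 members and 0 genes were called, with an adjusted p of 0.335 for Enpep and 0.526 for Mme. Depth limits Agt, Agtr1a and Agtr2, on at most 44 reads per library.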

Other observations

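Mast cell proteases of the angiotensin pathway, described after their values were seen, differed between libraries within each genotype. Mcpt4, a mast cell chymase, was at 4.61, 5.74 and 10.1 FPKM in EC-Jag1KO against 2.74, 1.005 and 5.15 FPKM in wild-type libraries, and Cpa3, the mast cell carboxypeptidase, at 1.42, 1.84 and 4.86 FPKM in EC-Jag1KO against 0.816, 0.685 and 2.68 FPKM in wild-type libraries. Tpsb2, a mast cell tryptase, was at 3.84, 3.49 and 8.03 FPKM in EC-Jag1KO against 1.997, 1.36 and 4.07 FPKM in wild-type libraries. In each genotype the female library was the highest in all 3 genes and in Cma1, and wild-type replicate 2 the lowest of the wild-type libraries, with groups that overlap. Among the males, and between the females, the EC-Jag1KO values of these 4 genes were above the wild-type ones, a difference within sex that was not tested. The share of all genes that lie this way in both sexes was not counted, and the 4 genes are not independent of each other. No mast cell result follows from them. Kit, the receptor of mast cells and other cells, was at 1.23, 1.64 and 1.74 FPKM in EC-Jag1KO against 1.20, 0.585 and 0.735 FPKM in wild-type libraries (adjusted p = 0.613, limma). Its groups did not overlap, where 6.84% of all tested genes were higher in this way and 13.6% separated in either direction. S100a8, a neutrophil gene, was at 0.233, 0.513 and 28.8 FPKM in EC-Jag1KO against 3.99, 0.508 and 0.794 FPKM in wild-type libraries, so EC-Jag1KO replicate 3 stands apart.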
